A study of Bos taurus with 15 samples.

Results

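A set of 41 genes was all but silent in control bovine fetal fibroblasts (BFFs) and was read in every sample transfected with the homeobox gene LEUTX. They were chosen from 21660 genes with an Ensembl cattle identifier by their own values in the control and LEUTX samples, in CPM (the count of a gene per 1000000 counts of its sample). The mean over the controls had to be under 0.5 CPM, the mean over the LEUTX samples at least 3 CPM, and each LEUTX sample at least 1 CPM. Because LEUTX and control values chose the genes, the difference between those groups is described below without a test. What wild-type (WT) ARGFX and mutant ARGFX did to the same genes was not used in the choice.

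ETCHbox genes encode homeodomain transcription factors of the PRD class, arose in placental mammals and are transcribed chiefly in the embryo before implantation. LEUTX and ARGFX belong to this group, as do the TPRX genes. They are not normally expressed in fibroblasts, so introducing one of them into these cells shows which genes respond to the protein in a background that lacks it.

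All cells came from 1 primary culture, grown out of the torso skin of 1 fetus aged 6 months and used at passage 4. BFFs carry WT ARGFX on both chromosomes. Cells were electroporated with a plasmid that drove its insert from the constitutive CMV promoter and carried puromycin resistance, were selected with 4 µg/mL puromycin, and gave RNA after 72 h. The 4 control samples received the empty vector, 4 samples received WT ARGFX, 3 received mutant ARGFX and 4 received LEUTX, each insert with a C-terminal 3xFLAG tag. Mutant ARGFX lacks the DNA-binding homeodomain, because a few missing bases upstream bring an early stop. Since all samples share a culture, p-values below measure the spread between transfections, not between animals. Total expected counts per sample were 25947911 to 28163565 in the controls, 31359218 to 35178524 with WT ARGFX, 28519622 to 41554242 with mutant ARGFX and 26917853 to 35454192 with LEUTX. At these depths, 1 count was worth 0.0241 to 0.0385 CPM. One WT ARGFX sample stood apart, the second of a pair that carry no number of their own: its distance to the other WT ARGFX samples (Euclidean, on log2 of CPM + 1) was 51.3 to 54.5, beside 18.9 to 20.2 among the others, 32.0 to 56.8 among the controls and 21.99 to 38.8 among the LEUTX samples.

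The transfected genes were read where the labels put them. LEUTX stood at 1294, 1338, 1729 and 1561 CPM in the LEUTX samples (1480 ± 203, SD, n = 4). It had at most 1 count in a control sample, 2.55 in a WT ARGFX sample and 11.3 in a mutant ARGFX sample. ARGFX averaged 3424 ± 720 CPM (SD, n = 4) with WT ARGFX and 5462 ± 1592 CPM (SD, n = 3) with mutant ARGFX, and had at most 1 count in a control and 5.67 in a LEUTX sample. Of the other ETCHbox genes, TPRX2 had no count in any sample, TPRX1 at most 3 counts in a sample, and TPRX3 a mean of 0.129 ± 0.102 CPM with LEUTX beside 0.177 ± 0.0973 CPM in the controls (SD, n = 4 each). All 3 TPRX genes lay far under 3 CPM with LEUTX. As they are listed by symbol and the rule took only Ensembl identifiers, they could not have entered the set at any level.

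The fibroblast label was checked on marker genes. Of 10 fibroblast markers, 4 could be located in the count table, all through the study's list of genes that rise with WT ARGFX, so the check covers only markers of that kind. COL1A1, a fibrillar collagen chain, stood at 12428 ± 1827 CPM in the controls and 14513 ± 2665 CPM with LEUTX (SD, n = 4 each). COL1A2 stood at 12289 and 16572 CPM, COL3A1 at 2859 and 1750 CPM, and the matrix protein gene FN1 at 2557 and 6991 CPM, so all 4 were abundant in both groups. Other lists covered epithelial and trophectoderm, muscle, fat, immune, endothelial, pigment, skin and neural cells and early embryo transcription factors. Of these, only TPRX1, TPRX2 and the smooth muscle genes ACTG2, ACTA2 and SMTN could be located, the muscle genes through that same list. None of the genes located is in the set, which TPRX1 and TPRX2 could not have entered. ACTA2, the actin of smooth muscle, stood at 699 ± 135 CPM in the controls and 3372 ± 316 CPM with LEUTX (SD, n = 4 each), ACTG2 at 314 and 1897 CPM, and SMTN at 26.7 and 77.6 CPM, all far above the limit of 0.5 CPM set for a silent gene. How many cells of another type each culture held was not tested.

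Symbols for Ensembl identifiers came only from the study's list of genes up with WT ARGFX. None of the 41 identifiers is paired with a symbol there, which does not mean that these genes have none. They are described by number, from gene 1 to gene 41 in order of falling mean CPM with LEUTX. CPM is not corrected for transcript length, and the order is therefore one of reads, not of transcript numbers. Identifiers are given for gene 1 (ENSBTAG00000030484.2) and for gene 7 (ENSBTAG00000000653.5), the member with the highest mean with WT ARGFX. Gene functions, promoters and proteins were not analysed here.

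Silent genes were common and genes of this kind were rare among them. In the controls 8468 genes, or 39.1% of all, had a mean under 0.5 CPM, and 3114 of these had no count in any of the 15 samples. The 41 genes were 0.484% of the 8468. No gene was left out only by the minimum of 1 CPM in each LEUTX sample. Just inside the control limit lay means of 0.475, 0.470 and 0.440 CPM (genes 28, 3 and 16), and just outside it 0.531, 0.540 and 0.561 CPM among genes that met the other conditions. The nearest of those left out was APOA1, the main protein of high-density lipoprotein, with 0.531 ± 0.0765 CPM in the controls, 6.51 ± 1.15 with LEUTX, 9.86 ± 3.37 with WT ARGFX (SD, n = 4 each) and 1.01 ± 0.387 with mutant ARGFX (SD, n = 3). Just inside the LEUTX limit lay means of 3.05, 3.10 and 3.20 CPM (genes 41, 40 and 39), and just outside it 2.95, 2.89 and 2.81 CPM.

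**Figure D1:**
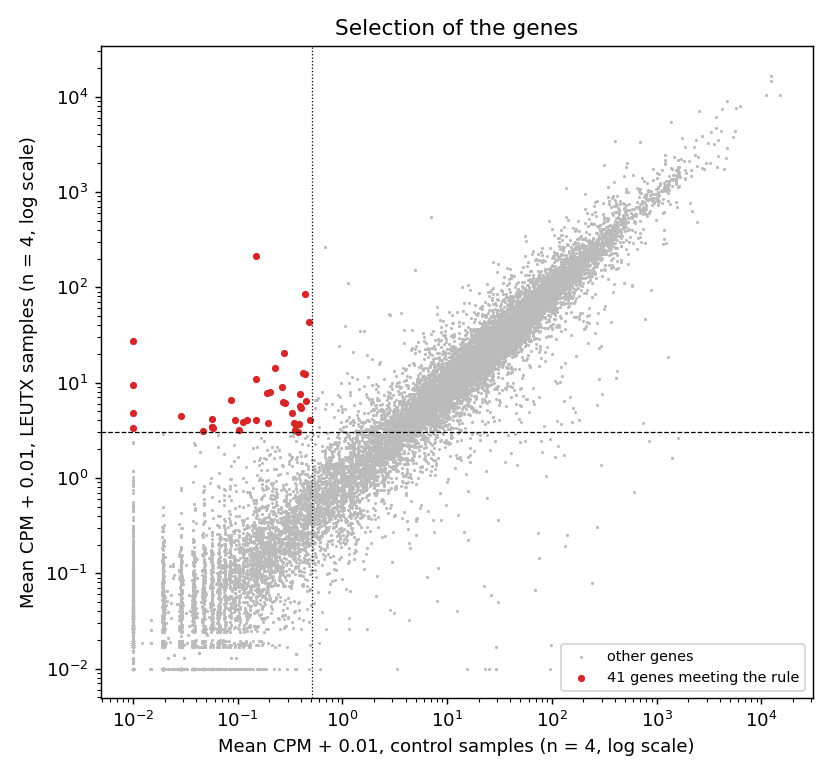
Mean CPM of each gene in the 4 control samples (x axis) and the 4 LEUTX samples (y axis), both on log scales after adding 0.01 CPM. The 41 genes of the set (red) lie left of the dotted line at 0.5 CPM and above the dashed line at 3 CPM, with gene 1 highest at 214 CPM.

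As a set the 41 genes went from a trace to a measurable part of the transcriptome. Their summed level was 605, 594, 620 and 563 CPM in the LEUTX samples (596 ± 24.1, SD, n = 4), against 9.91, 7.55, 10.3 and 7.60 CPM in the controls (8.84 ± 1.48, SD, n = 4). In reads, that is 197 to 273 counts over all 41 genes in a control sample and 16297 to 21974 in a LEUTX sample. Every member had a count in every LEUTX sample, while 30 to 34 of the 41 had at least 1 count in a given control sample. In these bulk samples, more cells with a gene on and more RNA of it per cell cannot be told apart.

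The set was led by a few genes. Gene 1 alone gave 35.9% of the summed LEUTX level, and genes 1 to 4 gave 61.8%. With LEUTX, 2 members had a mean of at least 50 CPM, 3 lay from 20 to under 50, 4 from 10 to under 20 and 11 from 5 to under 10. The other 21 lay under 5 CPM, close to the limit of 3 CPM, and the median over all 41 was 4.78 CPM. Without gene 1 the summed level was 382 ± 7.45 CPM with LEUTX and 8.70 ± 1.47 in the controls (SD, n = 4 each).

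Gene 1 had the widest separation of the members with more than 3 control counts. It stood at 0.184, 0.0710, 0.113 and 0.193 CPM in the controls and at 222, 219, 228 and 187 CPM with LEUTX. Its mean with LEUTX (214 ± 18.5, SD, n = 4) was 1525 times the control mean (0.140 ± 0.0584, SD, n = 4). Even the lowest LEUTX sample was 560 times the highest of all samples that did not receive LEUTX. With WT ARGFX gene 1 was read at 0.223, 0.0853, 0.123 and 0.334 CPM and with mutant ARGFX at 0.0650, 0.245 and 0.120 CPM, ranges that overlap the controls.

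Gene 2 stood at 73.3, 80.9, 91.6 and 90.7 CPM with LEUTX and at 0.111, 0.746, 0.718 and 0.135 CPM in the controls, 197 times lower on average. Gene 3 stood at 48.6, 45.0, 39.5 and 39.0 CPM with LEUTX and at 0.553, 0.107, 0.567 and 0.655 CPM in the controls, so it was one of the least silent members before LEUTX and its mean was 91.5 times higher with it. Gene 5 stood at 20.5, 14.2, 24.7 and 22.2 CPM with LEUTX and at 0.295, 0.391, 0.151 and 0.231 CPM in the controls. In each of these 3 genes the LEUTX samples lay far from the controls, but the controls themselves differed several-fold in genes 2 and 3, where few reads set each value.

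A few members had no read in the controls. Gene 4 had no count in any control, 1 count in all but 1 of the WT ARGFX samples and 1 count in a single mutant ARGFX sample, and was read at 29.5, 29.3, 25.6 and 24.1 CPM with LEUTX. Taking 3 counts over the control group as the most that a count of 0 allows (a floor that covers counting error only), its mean was at least 973 times higher with LEUTX. Genes 10, 22 and 37 had no count in any of the 11 samples without LEUTX. Gene 10 stood at 8.92, 9.81, 9.67 and 9.23 CPM with LEUTX, at least 338 times higher than the controls. Gene 22 stood at 4.64, 4.89, 5.22 and 4.21 CPM, at least 170 times higher, and gene 37 at 3.01, 3.03, 3.81 and 3.32 CPM, at least 118 times higher. These 4 genes were the only members without a count in the controls, and a further member, gene 23, had 2 counts over all 4 of them.

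For the 36 members with more than 3 counts over the control group, the LEUTX mean was 8.42 to 1525 times the control mean, with a median of 35.1 times. The smallest ratio belonged to gene 41, which went from 0.258, 0.391, 0.416 and 0.385 CPM to 2.30, 3.40, 2.74 and 3.77 CPM. Gene 41 was also the member with the lowest mean with LEUTX. In all 41 genes the lowest LEUTX sample lay above the highest of the 11 other samples. High LEUTX and low control values had chosen the genes, which favours such a separation from all samples that stay low. The number of all genes that separate in this way was not counted, so nothing is read from it. The highest value of any member outside the LEUTX samples was 2.08 CPM, in gene 16 in a WT ARGFX sample. On the log2 scale of the fit to all genes, the members' LEUTX changes ran from 3.16 to 12.76 with a median of 5.28, beside a median of -0.03 over all 14264 genes fitted. The upper end of that range is gene 4, whose fitted change rests on an added prior count.

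**Figure D2:**
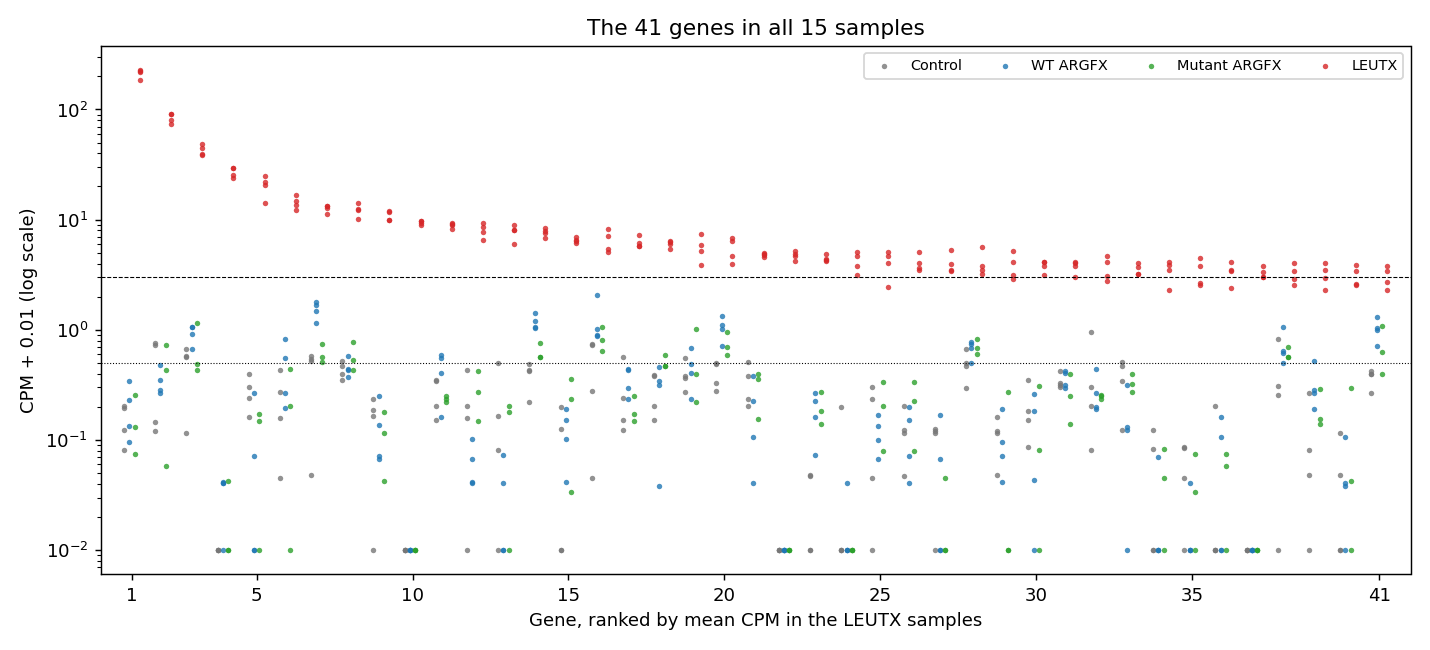
CPM of each of the 41 genes (x axis, in order of falling mean with LEUTX) in each of the 15 samples (y axis, log scale after adding 0.01 CPM, so that a point at 0.01 is a sample with no count). LEUTX samples (red) lie above all others for every gene, in genes chosen by their LEUTX and control values. The dotted and dashed lines mark 0.5 and 3 CPM.

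The LEUTX samples gave much the same picture of the set. The ratio of the highest to the lowest LEUTX sample ran from 1.08 to 2.07 over the 41 genes, with a median of 1.39, and was under 1.5 in 24 of them. The widest belonged to gene 25, at 4.05, 2.46, 4.65 and 5.09 CPM. The coefficient of variation was 3.40% to 28.3%, with a median of 13.6%. No sample carried the set. LEUTX samples 1, 2, 3 and 4 held the highest value of 10, 9, 12 and 10 members and the lowest value of 13, 7, 7 and 14 members. The transfected LEUTX gene itself differed 1.34 times between its highest and lowest sample, and the summed level of the members 1.10 times. The variance between LEUTX samples was a median of 5.27 times what counting alone would give, under 3 times in 14 members and 48.7 times at most, in gene 1. A fractional expected count, which can come from reads divided between similar genes, was rare: 2 of the 41 (4.88%), genes 2 and 30, had one in some sample, beside 12.3% of all genes with a count. Whole counts do not show that no reads were shared, and shared reads were not counted.

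The same rule was then applied with each ARGFX construct in the place of LEUTX. No gene of the 21660 met it with WT ARGFX, and none with mutant ARGFX. This depends on the control limit: APOA1, at 0.531 CPM in the controls, missed only that limit and reached 9.86 CPM with WT ARGFX, beside 6.51 with LEUTX. The condition on each sample covers 3 samples for mutant ARGFX and 4 for the other constructs. At other limits on the construct mean, with the control limit kept at 0.5 CPM, the counts remained apart. Genes silent in the controls with a mean of at least 1 CPM, and at least 1 CPM in each sample, numbered 94 with LEUTX, 5 with WT ARGFX and 1 with mutant ARGFX. At a limit of 2 CPM the numbers were 64, 2 and 0, and at 10 CPM 9, 0 and 0. In the other direction, 44 genes with a control mean of at least 3 CPM fell under 0.5 CPM with LEUTX, beside 16 with WT ARGFX and 1 with mutant ARGFX. These are counts past fixed levels, with no test between constructs, and all 3 constructs are set against the same 4 control samples.

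**Figure D3:**
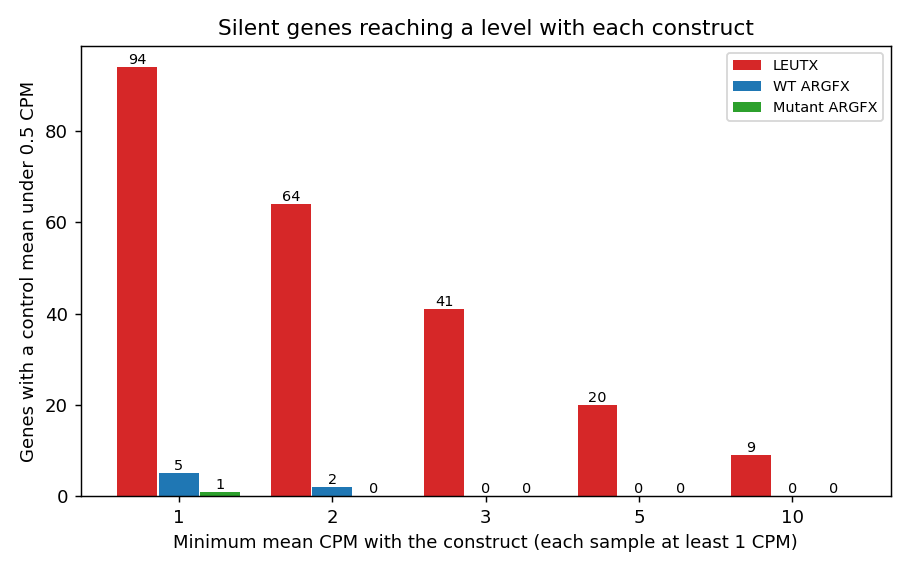
Number of genes with a control mean under 0.5 CPM (y axis) that reached each minimum mean CPM (x axis) with LEUTX, WT ARGFX or mutant ARGFX, with at least 1 CPM in each sample of the construct. At 3 CPM the counts are 41, 0 and 0.

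WT ARGFX left most of the 41 genes at a low level, and none reached a mean of 3 CPM. Their summed level was 13.3, 14.2, 13.7 and 13.1 CPM with WT ARGFX (13.5 ± 0.488, SD, n = 4), above each of the 4 controls, and 12.4, 10.0 and 11.6 CPM with mutant ARGFX (11.3 ± 1.18, SD, n = 3), which overlapped the controls. Low values in the same controls had chosen the members, so nothing is read from a sum that lies above them. The mean with WT ARGFX was at or over 0.5 CPM in 8 members and at or over 1 CPM in 5, while with mutant ARGFX it was at or over 0.5 CPM in 10 and at or over 1 CPM in none. WT ARGFX means exceeded the control mean in 22 of the 41 genes and mutant ARGFX means in 20, and fell short of it or equalled it in the others. Of all genes in the fit described next, 52.3% had a positive log2 fold change with WT ARGFX and 51.4% with mutant ARGFX. Nothing is read from the counts of members.

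In edgeR's quasi-likelihood test over 14264 genes, with a call at a Benjamini-Hochberg adjusted p under 0.05 and a change over 1.5-fold, WT ARGFX raised 8 of the 41 members (19.5%) against the controls. These were genes 3, 7, 14, 16, 20, 23, 39 and 41. Of all genes tested, 6.15% were called up, and of the 1032 other tested genes with a control mean under 0.5 CPM, 62 (6.01%) were. The members were chosen for low values in the same controls, which can by itself move such a comparison upward. The filter on low counts was passed by 18 members whether or not the LEUTX samples were counted, and by the other 23 only through their LEUTX values. Of the 8 called, genes 23 and 39 were among those 23, so their calls and the share of 19.5% carry no weight of their own beside the background. No member was called down, beside 6.86% of all genes tested, though a gene near 0 has little room to fall. Unadjusted p was under 0.05 in 13 members, 4 of them lower with WT ARGFX. The share of all genes with such a p was not counted, so nothing is read from that number. DESeq2 called 8 up, beside 5.6% of the genes it tested, and 3 down (genes 12, 13 and 33), beside 6.8%. Genes 12 and 13 passed edgeR's filter only through LEUTX, so nothing is read from their calls. The median log2 fold change of the members was 0.09, beside 0.02 over all genes tested, but it includes the 23 members tested only through LEUTX. When the LEUTX samples were left out of the fit, 18 members were tested and 4 of them were called up, beside 5.62% of the 13996 genes in that fit. A separate fit kept the LEUTX samples and left out the WT ARGFX sample that stood apart. It called 8 members up, not the same 8, as gene 3 lost its call (adjusted p = 0.0595, edgeR). The share of all genes called in that fit was not counted.

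Gene 7 had the highest level with WT ARGFX. It stood at 0.516, 0.533, 0.567 and 0.0385 CPM in the controls, at 1.79, 1.48, 1.66 and 1.15 CPM with WT ARGFX, at 0.553, 0.736 and 0.505 CPM with mutant ARGFX, and at 11.3, 13.2, 12.8 and 13.4 CPM with LEUTX. Every WT ARGFX sample lay above every control and every mutant ARGFX sample, and the lone low control was sample 4. The log2 fold change with WT ARGFX was 1.91 ± 0.33 (SE, adjusted p = 0.000353, edgeR), and without control 4 the call was kept, at 1.55. The other controls all lay over 0.5 CPM, so without control 4 the gene would not have entered the set. The control values thus both chose the gene and enter its test.

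Gene 14 gave the smallest adjusted p of the members in the edgeR fit to all samples, while in DESeq2 gene 7 had a smaller one. It stood at 0.480, 0.213, 0.416 and 0.424 CPM in the controls, at 1.02, 1.42, 1.05 and 1.18 CPM with WT ARGFX and at 0.748, 0.561 and 0.553 CPM with mutant ARGFX. The 3 groups do not overlap, with mutant ARGFX between the other two. Its log2 fold change with WT ARGFX was 1.67 ± 0.23 (SE, adjusted p = 5.76e-05, edgeR), and with LEUTX it reached 6.76, 7.57, 8.43 and 7.87 CPM.

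Genes 20 and 41 also rose with WT ARGFX in every sample. Gene 20 went from 0.480, 0.320, 0.491 and 0.270 CPM in the controls to 0.702, 1.34, 1.11 and 1.00 CPM, a log2 fold change of 1.46 ± 0.30 (SE, adjusted p = 0.00168, edgeR). Gene 41 reached 0.702, 0.995, 1.29 and 1.03 CPM, a log2 fold change of 1.52 ± 0.33 (SE, adjusted p = 0.00240, edgeR). For gene 41 the WT ARGFX mean of 1.00 ± 0.241 CPM lay closer to its LEUTX mean of 3.05 ± 0.657 CPM (SD, n = 4 each) than in any other member.

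Gene 23 was nearly silent in the controls, with 2 counts over the group, and stood at 0.0638, 0.256, 0.215 and 0.152 CPM with WT ARGFX and at 0.130, 0.175 and 0.265 CPM with mutant ARGFX. Both ranges lie above the controls, whose highest sample was 0.0378 CPM. The WT ARGFX samples held 23 counts in all, the mutant ARGFX samples 20 and the LEUTX samples 543. The low control level is one of the values the gene was chosen by, and the gene entered the test only through its LEUTX counts and drops out of a fit without those samples. Its calls with WT ARGFX and with mutant ARGFX are therefore listed with the others and nothing is read from them.

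The calls for genes 3, 16 and 39 did not hold without single samples. Gene 3 went from 0.553, 0.107, 0.567 and 0.655 CPM in the controls to 1.05, 0.654, 1.05 and 0.910 CPM with WT ARGFX (log2 fold change 1.03 ± 0.36, SE, adjusted p = 0.0417, edgeR), and the groups overlap. Without control 2, the low one, its adjusted p was 0.106, and it was also lost without control 1 (0.0564), control 3 (0.0575), WT ARGFX 1 (0.0901), either WT ARGFX sample without a number (0.0898 and 0.0595) or LEUTX 1, 2 or 3 (0.0504, 0.0530 and 0.0526, edgeR throughout). Its log2 fold change was 0.70 without control 2 and 0.95 to 1.12 in the other fits that lost the call. Gene 16 stood at 0.738, 0.0355, 0.718 and 0.270 CPM in the controls and at 0.861, 2.08, 1.01 and 0.880 CPM with WT ARGFX (1.53 ± 0.46, SE, adjusted p = 0.0183, edgeR). Its adjusted p was 0.0804 without WT ARGFX 2, the high one, and 0.0538 without control 4 (edgeR), at log2 fold changes of 1.15 and 1.37. Gene 39 stood at 0.258, 0.0710, 0.0378 and 0 CPM in the controls and at 0.510, 0.256, 0.277 and 0.182 CPM with WT ARGFX, groups that overlap in a gene tested only through its LEUTX counts (1.73 ± 0.62, SE, adjusted p = 0.0441, edgeR). It was lost without control 2, 3 or 4, without WT ARGFX 1, 2 or one of the unnumbered samples, without mutant ARGFX 1 or 3 and without LEUTX 1, 2 or 4, at adjusted p from 0.0520 to 0.136 (edgeR) and log2 fold changes from 1.35 to 1.82. Without control 1, the high one, the call was kept and the log2 fold change rose to 2.95 (adjusted p = 0.00519, edgeR).

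**Figure D4:**
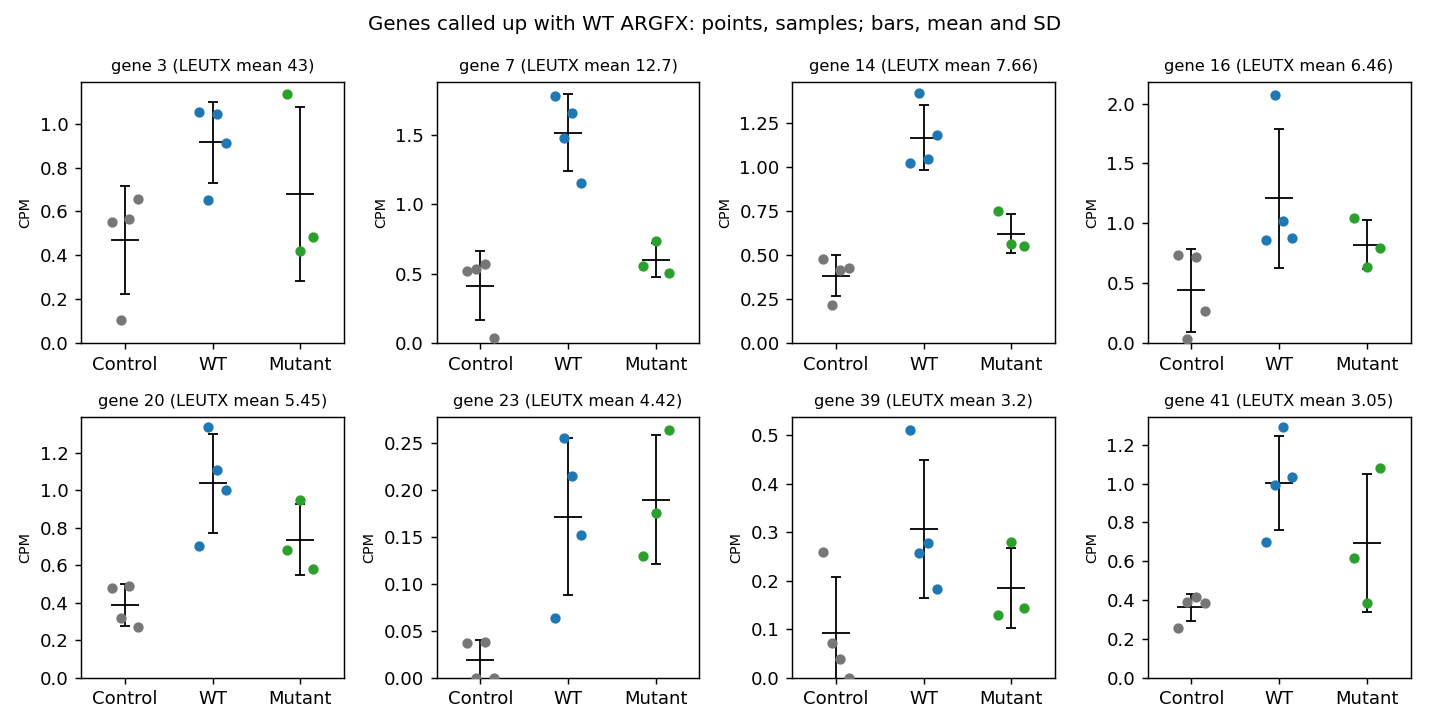
CPM (y axis, linear, a scale for each gene) of genes 3, 7, 14, 16, 20, 23, 39 and 41 in the 4 control, 4 WT ARGFX and 3 mutant ARGFX samples, with points for samples and bars for the mean and SD (bars cut off at 0). In genes 7, 14, 16, 20, 23 and 41 every WT ARGFX sample lies above every control, and how many of all genes do so was not counted. The mean LEUTX CPM over each panel is higher than any point in it.

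With mutant ARGFX 1 of the 41 members was called up, gene 23, beside 1.26% of all genes tested by edgeR's quasi-likelihood test, and none was called down, beside 2.57%. As gene 23 was tested only because of its LEUTX counts, nothing is read from this call, and in the fit without the LEUTX samples none of the 18 members tested was called up, beside 0.979% of all genes in that fit. Without mutant ARGFX 3 the call for gene 23 was lost (adjusted p = 0.0563, edgeR), so that none was left. Its log2 fold change was then 2.81, beside 3.14 in the fit to all samples. Unadjusted p was under 0.05 in 4 members (genes 14, 20, 23 and 41), all higher with mutant ARGFX, but the share of all genes was again not counted. The median log2 fold change was 0.01 both in the members, those tested only through LEUTX included, and over all genes tested. Every mutant ARGFX sample lay above every control in genes 14, 18, 20 and 23. How many of all genes separate in this way was not counted, so the separation is only described.

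WT ARGFX was set against mutant ARGFX directly, a comparison in which neither group had entered the choice of genes. The authors had left out another mutant ARGFX sample because it grouped with WT ARGFX in a principal component plot. What that sample would do to this comparison was not tested. Genes 7 and 14 were higher with WT ARGFX, beside 0.386% of all genes tested, and no member was lower, beside 1.12%, again by edgeR's quasi-likelihood test. Gene 7 was higher by 1.39 ± 0.33 on the log2 scale (SE, adjusted p = 0.0331, edgeR) and gene 14 by 0.96 ± 0.23 (SE, adjusted p = 0.0375, edgeR). In both genes all WT ARGFX samples lay above all mutant ARGFX samples. Both adjusted p-values moved over 0.05 when single samples were left out: neither gene was called without WT ARGFX 2, without mutant ARGFX 1, 2 or 3, or without LEUTX 2, 3 or 4, and only 1 was called without WT ARGFX 1 or either unnumbered WT ARGFX sample. The log2 difference itself stayed between 1.24 and 1.57 in gene 7 and between 0.84 and 1.11 in gene 14 over these fits. With a block for replicate number in the numbered samples, adjusted p was 0.189 in gene 7 and 0.254 in gene 14 (edgeR). Without the LEUTX samples it was 0.233 and 0.242 (edgeR), so neither gene was called in these 2 settings. Genes 12 and 18 lay the other way, with every mutant ARGFX sample above every WT ARGFX sample. How many of all genes separate in either direction was not counted, so nothing is read from these separations. Gene 18 stood at 0.446, 0.0284, 0.307 and 0.334 CPM with WT ARGFX and at 0.455, 0.456 and 0.578 CPM with mutant ARGFX, a difference of -0.81 ± 0.45 on the log2 scale that did not pass (SE, adjusted p = 0.559, edgeR). Gene 12 stood at 0.0319, 0.0569, 0.0922 and 0.0303 CPM with WT ARGFX and 0.260, 0.140 and 0.409 CPM with mutant ARGFX, and passed the filter only through LEUTX. Its difference was -2.28 ± 0.70 on the log2 scale and did not pass in edgeR (adjusted p = 0.134), while DESeq2 gave -2.36 with an adjusted p of 0.0155, beside 1.39% of genes it called lower. As its LEUTX counts brought gene 12 into the test, nothing is read from that call. In the members unadjusted p was under 0.05 in 4 genes, 1 of them lower with WT ARGFX. The share of all genes with such a p was not counted here either, so nothing is read from that number. The median log2 difference was 0.19, beside 0.01 over all genes tested. It includes the 23 members tested only through LEUTX, so nothing is read from it.

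**Figure D5:**
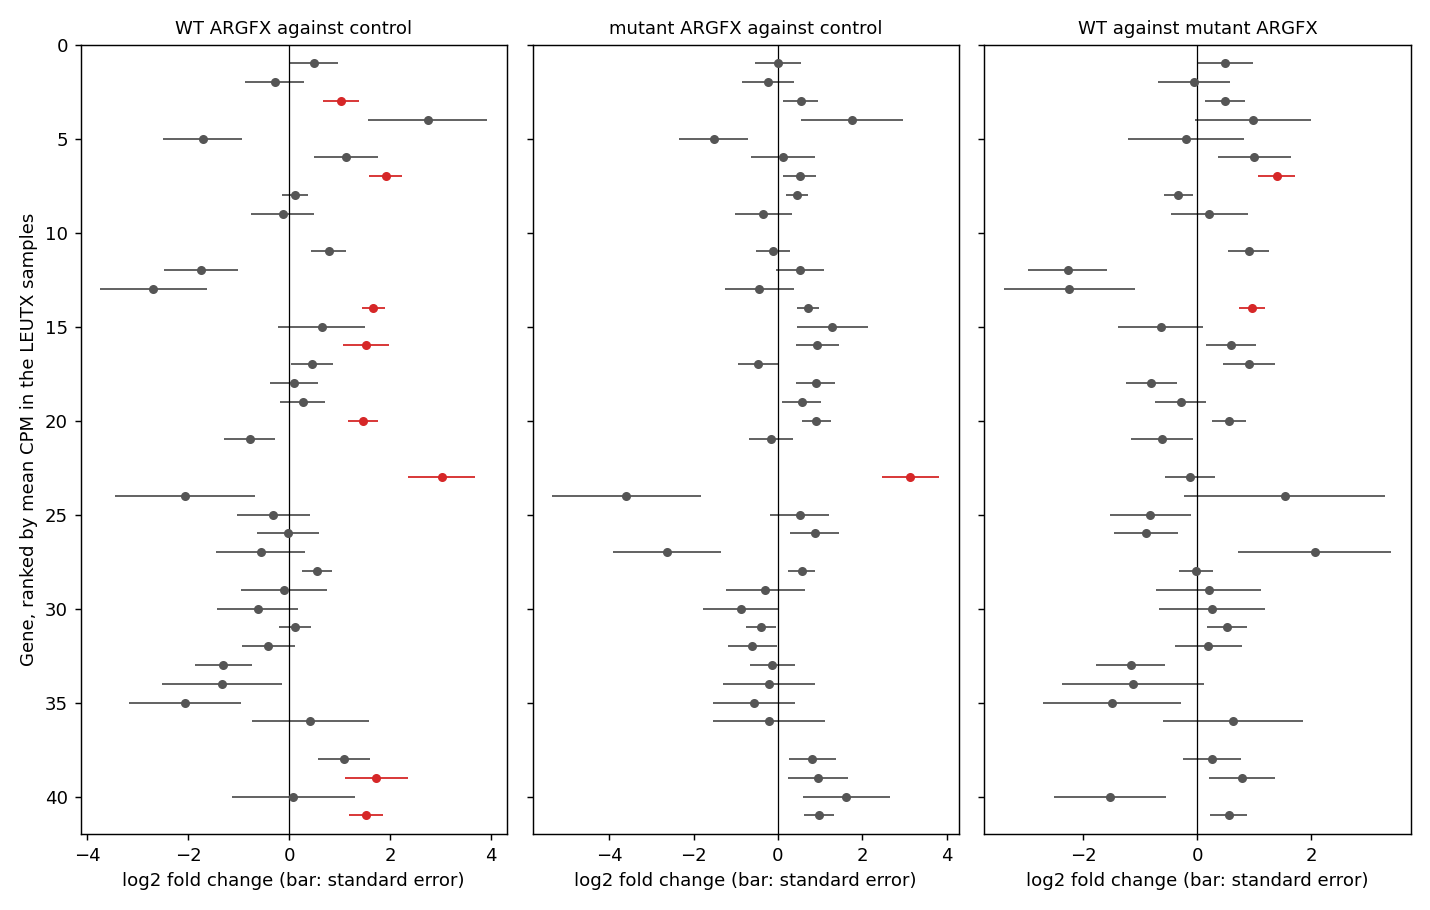
Log2 fold change with its standard error (x axis) of each of the 41 genes (y axis, gene 1 at the top) for WT ARGFX against control, mutant ARGFX against control and WT against mutant ARGFX, with called genes in red (8, 1 and 2). Genes 10, 22 and 37 had no count in these groups and no point is drawn, and values for genes with almost no counts, such as gene 4, depend on the added prior count.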

How the data were processed

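RNA-seq was measured in 15 samples of bovine fetal fibroblasts. Per the labels and the study's methods, the authors trimmed reads with Trimmomatic, ran kallisto 0.46.1 on the transcripts of ARS-UCD1.2 plus the ETCHbox genes, and summed the estimates to genes with tximport. These expected counts, as deposited, cover 21665 genes without normalization, and 93.6% of the values lie within 0.01 of a whole number. Groups came from sample titles, which the column headers repeat, and 2 WT ARGFX columns share a header and were used without a number. All columns of sample values were used. The mutant ARGFX sample that the authors left out was not analysed here.

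CPM was computed from each sample's total. The members and the gene lists were chosen with earlier results of these data known. Expected counts were rounded and tested in 1 fit to all samples with edgeR 4.0.16 in R 4.3.3 (its filter on low counts, TMM, quasi-likelihood test, Benjamini-Hochberg adjustment over 14264 genes), with DESeq2 1.42.0 as an alternative. A call needed an adjusted p under 0.05 and a fold change over 1.5. The study's expression threshold was not applied, since the genes are low outside LEUTX, and a mean of at least 5 CPM is an alternative. Standard errors were derived from the log2 fold change and the F statistic. The procedure was tested on simulated data. Other alternatives were DESeq2's size factors, no filter, only the groups compared, a replicate block, no fold threshold and each sample left out in turn. A fit without the LEUTX samples was added after seeing the data.

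Total expected counts ran from 25947911 to 41554242 per sample, and 3 counts were the floor for a value of 0. No pair of samples of a group agreed within sampling noise (chi-square per gene of at least 6.44). Members named are those highest with LEUTX, those with the largest ratio to control, those called in a comparison and those next to a limit, and genes 2, 5, 12, 13, 18, 25, 30 and 33 were named after their values were seen where that rule did not reach them. The rule asked for members with a symbol. As none could be paired with one here, it allowed 2 identifiers and gave the others without, by number. Of the 89 genes on the marker and pathway lists, 9 could be located, through the ETCHbox rows and the 232 identifiers paired with symbols in the part used here of the study's list of genes up with WT ARGFX. Located genes other than ETCHbox genes, APOA1 included, therefore all come from that list. The RefSeq gene table (ARS-UCD2.0) matched 0 identifiers, so the planned motif description of promoters was not run.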

Additional observations from a re-analysis of the deposited data

Results flagged for a closer look

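Within the groups of 4 samples, 52 comparisons over the described genes were checked for a sample far from the rest, and 3 were found, where chance gives about 1 in 20. Gene 7 was read at 0.0385 CPM in control 4 and at 0.516 to 0.567 CPM in the other controls. Gene 4 had a value of 0 in WT ARGFX 2 and 0.0303 to 0.0319 CPM, which is 1 count each, in the other WT ARGFX samples. Gene 16 was read at 2.08 CPM in WT ARGFX 2 and at 0.861 to 1.01 CPM in the others, and its call with WT ARGFX was lost without that sample (adjusted p = 0.0804, edgeR).

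In the fit to all samples WT and mutant ARGFX differed in genes 7 and 14, but the calls were lost in 12 and 13 of 23 other fits, among them the replicate block and the fit without the LEUTX samples, which called neither. In the fit to all samples the difference between the constructs was 1.39 ± 0.33 on the log2 scale in gene 7 and 0.96 ± 0.23 in gene 14 (SE, adjusted p = 0.0331 and 0.0375, edgeR), with all 4 WT ARGFX samples above all 3 mutant ARGFX samples in both. With the replicate block it was 1.45 in gene 7 and 1.02 in gene 14, and without the LEUTX samples 1.38 and 0.95. ARGFX itself was read at 3424 ± 720 CPM (SD, n = 4) with the WT and 5462 ± 1592 CPM (SD, n = 3) with the mutant construct. Whether the amount of the transfected gene bears on the difference was not tested.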

How the results depend on the processing

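The size of the set follows its limits: 22 genes with a control mean under 0.25 CPM, 63 under 1 CPM, 64 with a LEUTX mean of at least 2 CPM and 20 with at least 5 CPM. It was 42 with TMM scaling, 41 of them in common, and 39 to 43 when a control or LEUTX sample was left out. The count of members up with WT ARGFX (8) fell to 4 with only the groups compared, to 5 with the replicate block (7 in the same numbered samples without the block), to 1 with a mean of at least 5 CPM and to 4 without the LEUTX samples, and was 6 to 9 with a sample left out. The count up with mutant ARGFX (1) fell to 0 with only the groups compared, with a mean of at least 5 CPM and without the LEUTX samples, and was 0 to 1 with a sample left out. The count higher with WT than mutant ARGFX (2) fell to 1 with no filter or with only the groups compared and to 0 with the replicate block, without the block in the same numbered samples, with a mean of at least 5 CPM and without the LEUTX samples, and was 0 to 2 with a sample left out. The count of members down (0) rose to 3 with DESeq2 and to 1 in the numbered samples both with and without the replicate block, and was 0 to 2 with a sample left out. The cause was not tested, apart from the settings that use fewer samples or test fewer genes.

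The 16 same-numbered pairs of samples had a mean correlation of deviations of 0.00 (-0.56 to 0.57). Differently numbered pairs were not set beside them, so whether replicate numbers pair the samples was not tested. The block used the samples with a number of their own. Of the members called with WT ARGFX, genes 7, 14, 20 and 41 were called in all 23 fits that tested them one at a time, apart from the threshold on mean CPM. Genes 23 and 39 pass the filter only through LEUTX and drop out of the fits to only the groups compared and without the LEUTX samples. The call was lost in 13 of 23 fits for gene 3, 5 of 23 for gene 16 and 12 of 21 for gene 39, with adjusted p of up to 0.216, 0.0825 and 0.136 (edgeR). Between WT and mutant ARGFX the call was lost in 12 of 23 fits for gene 7 and 13 of 23 for gene 14, with adjusted p of up to 0.233 and 0.254 (edgeR). None of these calls reversed its direction in the fits run, and members without a call were not followed across them. Depth limits the low members most, since a control value of 0.5 CPM is little more than 10 reads.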
